A study of Mus musculus with 12 samples.

Results

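The receptor chains for interleukin-3 (IL-3), granulocyte-macrophage colony-stimulating factor (GM-CSF) and IL-5 were examined in mouse bone marrow-derived basophils. The 5 genes, Il3ra, Csf2rb, Csf2rb2, Csf2ra and Il5ra, were taken by symbol from a table of 31301 gene symbols, and all 5 were found and passed the filter on low counts. Wild-type C57BL/6J mice gave the bone marrow, which was kept for 7 days in culture with IL-3 at 0.3 ng/mL or with thymic stromal lymphopoietin (TSLP) at 1 µg/mL. For TSLP the labels hold conflicting units, and that of the treatment protocol is used here. CD200R3+ c-Kit- cells were sorted by 2 further proteins. FcεRIαhi CD49blo cells are named immature here (the study calls them pre-basophils), and cells that were FcεRIαlo CD49bhi are named mature. The 4 groups were immature and mature cells grown with IL-3 and immature and mature cells grown with TSLP, each with 3 libraries from 3 cultures. Where 4 values follow each other without group names, they stand in that order. Whether the marrow of several mice was pooled for a culture is not given in the sources used here, so the p values measure the spread between cultures.

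Receptors of this family pair a cytokine-specific alpha chain with a shared signalling beta chain. Il3ra, Csf2ra and Il5ra encode the alpha chains for IL-3, GM-CSF and IL-5, Csf2rb encodes the beta chain common to these cytokines, and Csf2rb2 encodes a second beta chain of the mouse that serves the IL-3 receptor. The beta chains carry JAK2, which activates STAT5 after ligand binding, and IL-3 is a growth and survival factor of basophils. TSLP binds a different class I cytokine receptor, made of the products of Crlf2 and Il7r, which also signals through STAT5.

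In both cultures the beta chain transcripts were higher in mature than in immature cells, 3.51-fold with IL-3 and 2.38-fold with TSLP for Csf2rb and Csf2rb2 summed. Il3ra showed another pattern. It was lower in TSLP than in IL-3 cultures, 2.68-fold in mature and 2.73-fold in immature cells, and its difference between stages did not pass the test in either culture. The beta chains were 1.705-fold higher in TSLP immature than in IL-3 immature cells. Counts of the summed beta chains per count of Il3ra therefore ran from 10.5 ± 3.88 in IL-3 immature to 135.1 ± 47.0 in TSLP mature libraries (mean ± SD, n = 3). Csf2ra was low in every group and higher in IL-3 mature than in IL-3 immature cells. Its call between the TSLP stages was lost in 10 of 12 fits that left out 1 library. Il5ra had 4 to 27 counts in a library.

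Csf2rb (GRCm38, chr15:78325752-78353847, plus strand) and Csf2rb2 (chr15:78282507-78305721, minus strand) are divergent neighbours, 20030 bases apart. Their coding sequences were identical at 2503 of 2628 aligned bases (95.2%), and the longest identical run was 242 bases. Of the stretches of 50 bases in the longest coding transcript of Csf2rb, 18.4% also occurred in Csf2rb2, and 19.0% of those of Csf2rb2 occurred in Csf2rb. A short read from such a stretch cannot be placed in 1 of these genes, which is why the sum of both is given throughout. The pair of 120-base coding windows with the fewest differences lies in exon 15 of Csf2rb (chr15:78348577-78348696, plus strand) and exon 14 of Csf2rb2 (chr15:78284752-78284871, minus strand). Their letters are shown to let a reader see where the genes cannot be separated:
Csf2rb, fewest differences: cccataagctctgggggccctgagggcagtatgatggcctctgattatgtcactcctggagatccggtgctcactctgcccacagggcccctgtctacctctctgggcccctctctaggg
Csf2rb2, fewest differences: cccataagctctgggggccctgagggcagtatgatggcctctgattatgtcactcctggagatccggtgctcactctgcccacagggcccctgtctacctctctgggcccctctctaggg
The pair with the most differences, 16, lies in exon 5 of Csf2rb (chr15:78338867-78338986, plus strand) and exon 4 of Csf2rb2 (chr15:78294345-78294464, minus strand). Here the bases that differ are in capitals, and reads across them can be told apart:
Csf2rb, most differences: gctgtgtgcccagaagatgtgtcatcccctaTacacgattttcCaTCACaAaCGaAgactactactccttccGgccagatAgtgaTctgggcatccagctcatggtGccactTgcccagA
Csf2rb2, most differences: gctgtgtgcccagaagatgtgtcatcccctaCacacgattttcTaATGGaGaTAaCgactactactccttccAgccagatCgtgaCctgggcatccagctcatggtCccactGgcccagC

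**Figure D1:**
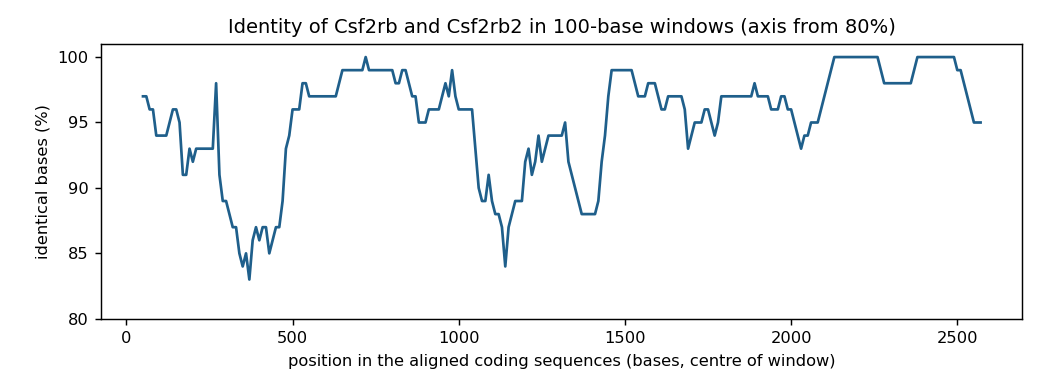
Percent of identical bases (vertical axis, drawn from 80%) in windows of 100 bases along the aligned coding sequences of Csf2rb and Csf2rb2 (horizontal axis, centre of the window in bases). Identity ran from 83% to 100%, with the lowest window centred at base 370.

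Il3ra (chr14:14346275-14356011, plus strand) and Csf2ra (chr19:61223957-61228429, minus strand) shared no stretch of 50 bases with another gene, and Il5ra (chr6:106710357-106749037, minus strand) shared at most 0.518% of its stretches with any 1 gene. An exon of Il3ra overlaps Gm48860 on the opposite strand, and whether counting used strand is not given in the sources used here. Promoter sequences (RefSeq, GRCm38.p6) were held for 4 of the 5 genes, Csf2rb being the exception. They are shown for 2 genes whose difference between the cytokines went in opposite directions in immature cells, as the 250 bases before the RefSeq start site. The first is Csf2rb2 (chr15:78305722-78305971, minus strand), with letters of the STAT motif TTCNNNGAA, which reads the same on both strands, and of the GATA motif GATAA, found here on the other strand as TTATC, in capitals:
Csf2rb2 promoter: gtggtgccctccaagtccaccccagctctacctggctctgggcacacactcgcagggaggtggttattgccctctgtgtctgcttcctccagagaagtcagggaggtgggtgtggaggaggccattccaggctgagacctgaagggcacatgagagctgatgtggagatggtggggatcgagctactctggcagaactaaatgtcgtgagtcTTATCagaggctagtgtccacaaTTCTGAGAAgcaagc
The second is Il3ra (chr14:14346245-14346494, plus strand), in which neither motif was found:
Il3ra promoter: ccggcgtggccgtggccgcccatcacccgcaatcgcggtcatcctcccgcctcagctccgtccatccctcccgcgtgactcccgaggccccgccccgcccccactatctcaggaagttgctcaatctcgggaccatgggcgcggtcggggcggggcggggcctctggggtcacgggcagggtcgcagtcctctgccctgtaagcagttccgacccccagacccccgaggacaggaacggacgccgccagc
The STAT letters began 15 bases and the GATA letters 38 bases before the start of Csf2rb2, and the 2 matches did not overlap. Of 32851 promoters of 300 bases (250 before and 50 after the start), 8.30% held the STAT motif and 25.4% the GATA motif on either strand. Of the other promoters of the family, that of Il5ra held GATAA and that of Csf2ra neither. The annotation starts Il3ra at base 14346275, so most of its promoter window lies within the annotated gene. Only the first bases of that window come before this start, and letters further before it were not searched. These matches describe letters only, and binding was not measured.

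Total counts ranged from 1720065 to 3685285 per library. Levels are given as CPM, counts relative to the TMM-scaled library total, and fold changes with their 95% intervals come from 1 edgeR quasi-likelihood fit over all 12 libraries, with p values adjusted over 10861 genes. All 8 basophil markers had counts in every group. Their summed level was 37995 to 41621 CPM in IL-3 immature and 10287 to 12539 CPM in IL-3 mature libraries. With TSLP it was 27352 to 30406 CPM in immature and 8518 to 11624 CPM in mature libraries. The 8 genes did not share 1 direction. With IL-3, 4 were called higher in immature and 4 in mature cells (22.1% and 24.1% of all tested genes). With TSLP these were 3 and 3 (12.2% and 12.9%), or 4 and 3 (19% and 12.4%) without the library TSLP mature 1. The 7 mast cell markers, Kit included, summed to at most 8.90 CPM, and Tpsab1 and Mrgprb2 among them were at 0 in every group. TSLP mature 1 stood apart: its 8 neutrophil markers summed to 742.5 CPM, where the other 2 of its group had 49.9 and 38.8, its 8 B lineage markers to 151.1 against 16.2 and 18.5, and its ribosomal RNA was 17.3% of counts against 31.5% and 34.7%. Values without it are given beside the results it changes. The B lineage markers were higher in all TSLP libraries. They summed to 27.3 to 32.7 CPM in TSLP immature libraries, against 6.31 to 6.95 CPM in IL-3 immature and 2.14 to 2.91 CPM in IL-3 mature libraries. Only 2 of these 8 passed the filter. In bulk libraries, fewer cells that express a gene and less RNA per cell cannot be told apart.

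**Figure D2:**
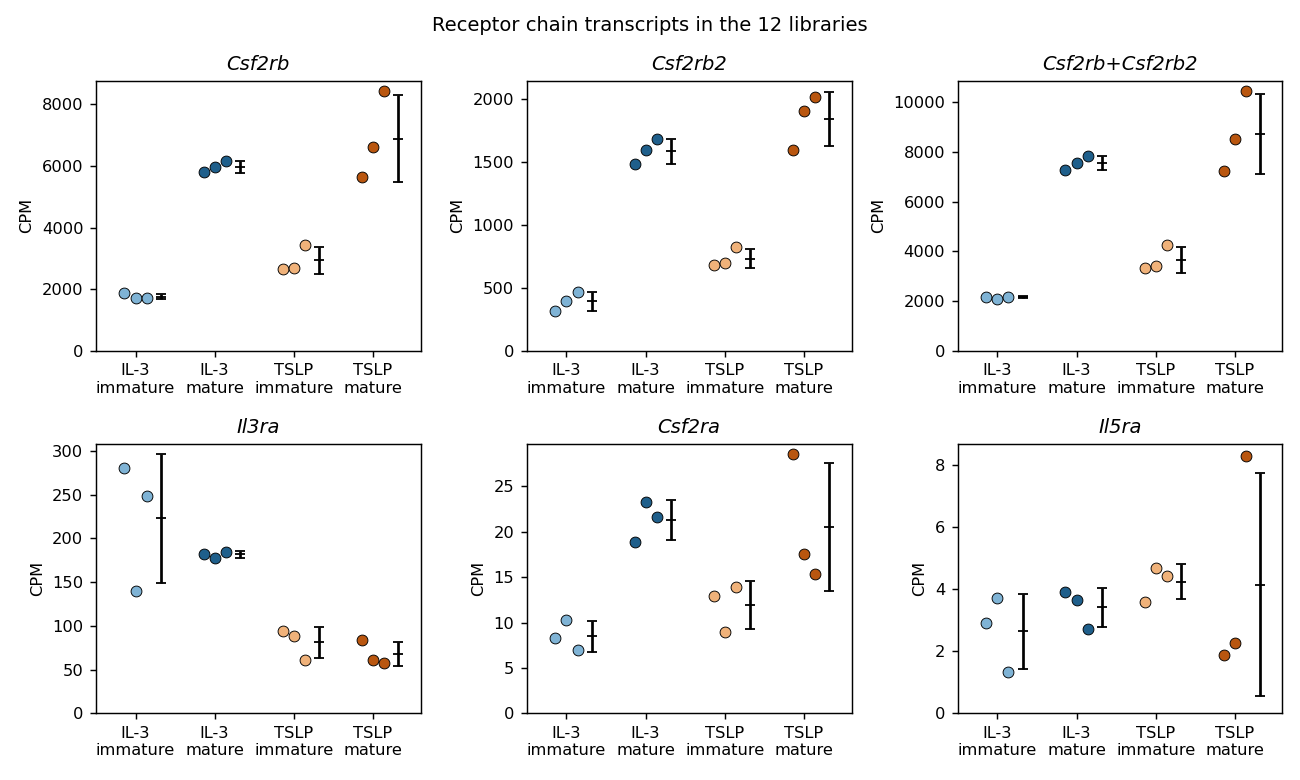
CPM (vertical axes, from 0) of each receptor chain gene and of the summed beta chains in the 12 libraries, by group. Points are libraries, and the bar beside them is the mean with its SD (n = 3); for the beta chains all mature libraries lie above all immature ones, and for Il3ra all TSLP libraries lie below all IL-3 libraries.

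The common beta chain gene Csf2rb was at 1864, 1702 and 1707 CPM in the 3 IL-3 immature libraries and at 5793, 5961 and 6160 CPM in the IL-3 mature libraries. In TSLP cultures it was at 2660, 2701 and 3447 CPM in immature and at 5643, 6611 and 8424 CPM in mature libraries. The stages did not overlap in either culture, and the highest of the 6 immature libraries lay below the lowest of the 6 mature ones. Csf2rb was 3.40-fold higher in mature cells with IL-3 (95% interval 2.54 to 4.55, edgeR adjusted p = 2.42e-06) and 2.35-fold higher with TSLP (1.76 to 3.13, edgeR adjusted p = 0.000231).

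The IL-3 specific beta chain gene Csf2rb2 ran in parallel at a lower level. It was at 315.8, 393.1 and 469.8 CPM in the IL-3 immature libraries, and in the IL-3 mature ones at 1479, 1590 and 1680 CPM. In TSLP immature libraries it was at 679.2, 695.1 and 819.5 CPM, and in TSLP mature libraries at 1596, 1904 and 2013 CPM. The mature libraries were again the high ones in both cultures, without overlap. Csf2rb2 was 4.03-fold higher in mature cells with IL-3 (3.03 to 5.35, edgeR adjusted p = 4.46e-07) and 2.51-fold with TSLP (1.90 to 3.32, edgeR adjusted p = 8.36e-05).

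Summed, the beta chains were at 2151 ± 48.2 CPM in IL-3 immature and at 3667 ± 519.8 CPM in TSLP immature cells, and at 7555 ± 284.1 CPM in IL-3 mature and 8731 ± 1609.6 CPM in TSLP mature cells (mean ± SD, n = 3). Each step in this order separated the libraries without overlap except the last, between the mature groups. The sum was 3.51-fold higher in mature cells with IL-3 (2.64 to 4.67, edgeR adjusted p = 1.48e-06) and 2.38-fold with TSLP (1.80 to 3.15, edgeR adjusted p = 0.000164). Without TSLP mature 1, the log2 difference of immature minus mature TSLP cells was -1.28 for the sum, -1.26 for Csf2rb and -1.33 for Csf2rb2, as large as with it. Markers of other blood cells moved with the stage too. The 8 dendritic cell markers summed to 31.5 to 52.9 CPM in immature and 78.0 to 141.8 CPM in mature libraries grown with IL-3, and with TSLP to 90.6 to 99.1 and 289.8 to 911.4 CPM, with Clec9a at 0 in every group and TSLP mature 1 as the highest library. Only 2 of these 8, H2-Ab1 and Cd74, passed the filter. Both were called higher in mature cells in both cultures, with and without TSLP mature 1. With all libraries, 24.1% of all tested genes were called higher in mature cells with IL-3 and 12.9% with TSLP. Without TSLP mature 1 these shares were 25.6% and 12.4%. Flt3, Zbtb46, Clec9a, Xcr1, Cd209a and Siglech were not tested. Neutrophil and monocyte markers, given with Csf2ra, were also higher in mature cells in part. Their part in the level of the beta chains was not tested.

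Between cytokines at the same stage, the beta chains differed in immature cells. Csf2rb was 1.67-fold higher in TSLP immature than in IL-3 immature cells (1.26 to 2.22, edgeR adjusted p = 0.0200), Csf2rb2 1.86-fold (1.41 to 2.45, edgeR adjusted p = 0.00589) and their sum 1.705-fold (1.29 to 2.25, edgeR adjusted p = 0.0147), with all 3 TSLP libraries above all 3 IL-3 libraries. The call of Csf2rb depended on the replicates: with IL-3 immature 2, IL-3 immature 3 or TSLP immature 3 left out its adjusted p was 0.0798, 0.0526 and 0.118, with log2 differences of 0.68, 0.68 and 0.60 against 0.74 in all libraries. The call of the sum was lost when IL-3 immature 2 was left out (0.71, adjusted p = 0.0624) and when TSLP immature 3 was (0.63, adjusted p = 0.0945), and Csf2rb2 was called in every such fit (adjusted p at most 0.0393). In mature cells the groups overlapped, and the fold of TSLP over IL-3 was 1.15 for Csf2rb (0.870 to 1.53, edgeR adjusted p = 0.466) and 1.16 for Csf2rb2 (0.883 to 1.53, edgeR adjusted p = 0.432). These intervals leave room for a rise of up to 1.53-fold and for a slight fall.

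Whether the step from immature to mature cells differed between cytokines was tested as an interaction. The log2 difference of immature minus mature cells was less negative with TSLP than with IL-3 by 0.53 ± 0.27 (SE) for Csf2rb, 0.68 ± 0.26 for Csf2rb2 and 0.56 ± 0.27 for the sum, and none passed the test (edgeR adjusted p = 0.317, 0.170 and 0.275). The interaction called 0 of the 5 genes by edgeR and 0 by DESeq2, where edgeR called 4.19% of all tested genes, 2.15% with a positive and 2.04% with a negative interaction. Of the 5, only Csf2rb2 had an unadjusted p under 0.05 in the edgeR fit (0.0202). The smaller TSLP fold is thus not shown to differ from the IL-3 fold.

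The share of Csf2rb2 in the counts of both beta chain genes was 18.3% ± 3.57, 20.9% ± 0.555, 20.005% ± 0.694 and 21.2% ± 1.69 in the 4 groups (mean ± SD, n = 3). The groups overlapped in all 4 pairwise comparisons (exact two-sided permutation tests, p from 0.3 to 0.9, and 0.6 to 0.9 after Benjamini-Hochberg adjustment over 16 tests; smallest possible p = 0.1). IL-3 immature 1, the library with the lowest total, had the lowest share, 14.5%, and the other 11 libraries lay between 18.8% and 22.4%. Csf2rb2 counts amounted to 16.9% to 28.8% of Csf2rb counts in a library, beside the 18.4% of Csf2rb stretches that also occur in Csf2rb2. How far reads of 1 gene were counted for the other was not tested, so the level of Csf2rb2 and its parallel course are uncertain. The sum does not depend on how reads were divided between these genes, but it would change if reads that fit both were dropped or counted for each.

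Il3ra, the alpha chain that gives the receptor its specificity for IL-3, was at 279.9, 140.3 and 248.3 CPM in the IL-3 immature libraries and at 182.7, 177.8 and 184.9 CPM in the IL-3 mature ones. In TSLP cultures it was at 94.7, 87.9 and 61.3 CPM in immature and at 83.6, 61.6 and 57.8 CPM in mature libraries. The lowest of the 6 IL-3 libraries lay above the highest of the 6 TSLP libraries, whereas the stages overlapped within both cultures. Il3ra was 2.68-fold lower in TSLP mature than in IL-3 mature cells (1.87 to 3.85, edgeR adjusted p = 0.00117) and 2.73-fold lower in TSLP immature than in IL-3 immature cells (1.91 to 3.92, edgeR adjusted p = 0.00127).

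The fold of Il3ra in immature over mature cells was 1.22 with IL-3 (0.862 to 1.74, edgeR adjusted p = 0.337) and 1.2005 with TSLP (0.838 to 1.72, edgeR adjusted p = 0.470), and its interaction was -0.03 ± 0.34 on the log2 scale (adjusted p = 0.981). IL-3 immature 2 was the low library of its group, and without it the immature minus mature log2 difference with IL-3 was 0.59 (adjusted p = 0.0583). Without TSLP mature 1 the TSLP minus IL-3 log2 difference of mature cells was -1.69 (edgeR adjusted p = 0.000293). Il3ra was lower and called in TSLP cells in all 20 alternatives of each comparison, with log2 differences from -1.69 to -1.36 in mature and from -1.73 to -1.26 in immature cells. The share of ribosomal RNA moved with the cytokine as well, at 14.7% to 25.0% of counts in IL-3 and 17.3% to 40.1% in TSLP libraries. With ribosomal RNA left out of the counts, Il3ra kept both calls.

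Csf2ra, the alpha chain for GM-CSF, was at 8.25, 10.3 and 6.95 CPM in immature and at 18.9, 23.3 and 21.6 CPM in mature libraries grown with IL-3. With TSLP it was at 12.9, 8.99 and 13.96 CPM in immature and at 28.6, 17.6 and 15.4 CPM in mature libraries. The mature libraries were higher in both cultures without overlap, by 2.48-fold with IL-3 (1.64 to 3.75, edgeR adjusted p = 0.00122) and 1.71-fold with TSLP (1.16 to 2.52, edgeR adjusted p = 0.0409). The call with TSLP was lost in 10 of 12 fits that left out 1 library. Its size changed most without TSLP mature 1, the highest library of all 12. There the immature minus mature log2 difference was -0.36 against -0.77 (edgeR adjusted p = 0.281). The call was also lost with DESeq2 (adjusted p = 0.0681), and over all alternatives the adjusted p ran from 0.0307 to 0.281. Markers of neutrophils and monocytes, cells that carry the GM-CSF receptor, were in part higher in mature cells: with IL-3, 3 of 8 neutrophil and 5 of 8 monocyte and macrophage markers were called (24.1% of all tested genes), and with TSLP 7 of 8 in both lists (12.9% of all tested genes). In the other direction 0 were called by edgeR and 0 by DESeq2, and 0 had an unadjusted p under 0.05. The neutrophil count with TSLP rested on TSLP mature 1: without it 1 of 8 was called (12.4% of all tested genes). DESeq2 called 2 with all libraries (11.8% of all tested genes). Without TSLP mature 1 the IL-3 count rose to 8 of 8 in the same fit (25.6% of all tested genes). The monocyte and macrophage counts there were 5 with IL-3 and 6 with TSLP, beside the same 25.6% and 12.4%. The 8 neutrophil markers summed to 45.4 to 85.7 CPM in immature and 284.5 to 409.3 CPM in mature libraries grown with IL-3, and with TSLP to 10.9 to 47.3 and 38.8 to 742.5 CPM, where the mature libraries other than TSLP mature 1 had 38.8 and 49.9 CPM and overlapped the immature ones. The 8 monocyte and macrophage markers summed to 88.4 to 118.9 CPM and to 567.3 to 709.5 CPM at these stages with IL-3, and with TSLP to 201.2 to 240.03 and 490.5 to 781.1 CPM, and no gene of either list was at 0 over a group. Their part in the level of Csf2ra was not tested. Between cytokines, the fold of TSLP over IL-3 for Csf2ra was 1.40 in immature cells (0.913 to 2.16, edgeR adjusted p = 0.289), and in mature cells IL-3 exceeded TSLP 1.03-fold (0.712 to 1.497, edgeR adjusted p = 0.914).

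Il5ra, the alpha chain for IL-5 and a receptor known from eosinophils, was near the limit of detection. With IL-3 it was at 2.91, 3.71 and 1.32 CPM in immature and at 3.92, 3.64 and 2.71 CPM in mature libraries. With TSLP it was at 3.61, 4.69 and 4.43 CPM in immature and at 1.89, 2.27 and 8.31 CPM in mature libraries, and the 4 groups held 23, 27, 37 and 42 counts in all. The groups overlapped in each pairwise comparison, and none was called (edgeR adjusted p from 0.473 to 0.962). The interval for mature over immature cells with IL-3 reached from 0.548-fold to 3.05-fold. Differences of Il5ra were not detectable at this depth. The high library, TSLP mature 3, held 27 of the 42 counts of its group. Among 7 other eosinophil markers, the summed level was 16.4 to 36.4 CPM in immature and 61.0 to 105.2 CPM in mature libraries, and Epx, which encodes eosinophil peroxidase, was at 0 in IL-3 mature and TSLP immature cells. Only 3 of these 7 passed the filter. With IL-3, 1 was called higher in immature and 2 in mature cells (22.1% and 24.1% of all tested genes). With TSLP these were 0 and 2 by edgeR (12.2% and 12.9% of all tested genes) and by DESeq2. Without TSLP mature 1 they were 1 and 2 (19% and 12.4% of all tested genes). The part of eosinophil markers in the counts of Il5ra was not tested.

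Of the 5 genes, 3 were called between the IL-3 stages, 0 higher and 3 lower in immature cells, where 46.2% of tested genes were called, 22.1% higher and 24.1% lower. Between the TSLP stages 0 were higher and 3 lower in immature cells, where 25.1% of tested genes were called, 12.2% higher and 12.9% lower. Between the mature groups 1 was lower and 0 higher with TSLP, where 24.3% were called, 12.4% higher and 11.9% lower. Between the immature groups 2 were higher and 1 lower with TSLP, where 13.3% were called, 7.38% higher and 5.9% lower. This background changed with the libraries: the 1443 calls became 588, 939 or 955 without TSLP immature 3, 1 or 2, 710 or 738 without IL-3 immature 1 or 2, and 2243 without TSLP mature 1. Its balance turned in some fits, with 769 genes higher and 948 lower without a filter and 716 higher and 760 lower with DESeq2, against 802 and 641. The groups did not overlap for 3, 3, 1 and 3 of the 5 genes in these comparisons, and for 57.8%, 38.3%, 38.6% and 38% of all tested genes. The comparisons share groups, so these counts are not independent.

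**Figure D3:**
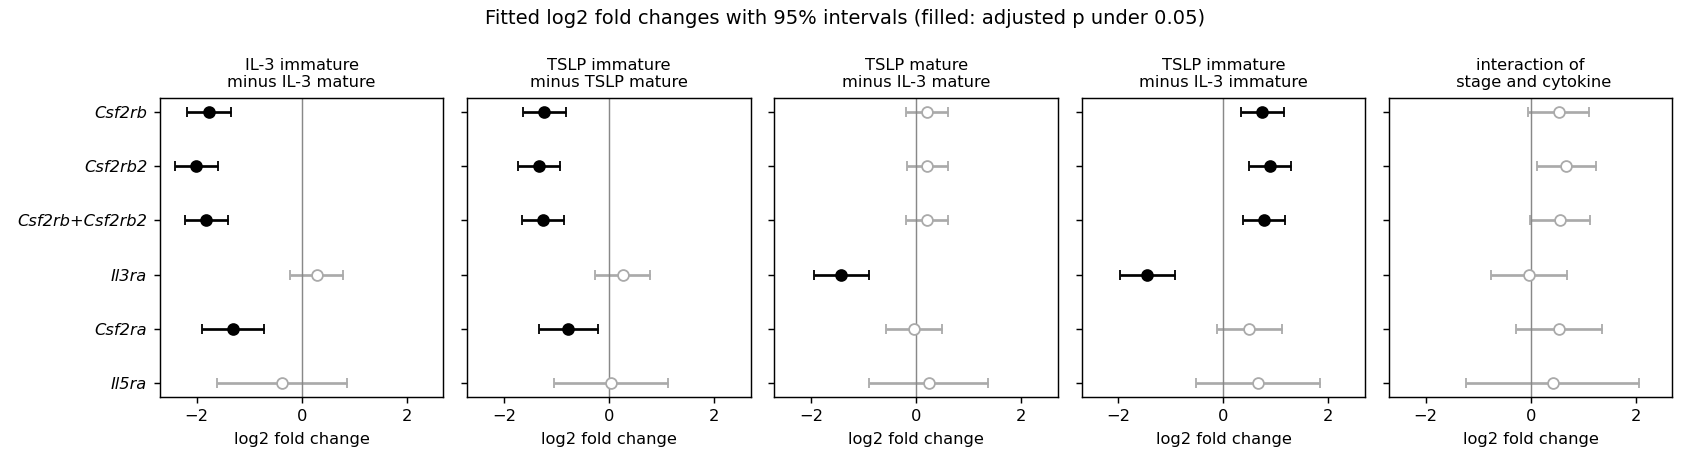
Log2 fold changes (horizontal axes, first minus second group) of the 5 genes and the summed beta chains with 95% intervals from the edgeR fit, 1 panel per comparison, the last being the interaction. Filled black points passed an adjusted p under 0.05; the beta chains and Csf2ra are filled on the left in the stage panels, and Il3ra is filled on the left in the cytokine panels.

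To compare the genes with each other, levels were divided by the length of the transcript. This supposes that reads cover whole transcripts evenly, which was not tested. Per kilobase of the longest coding transcript, IL-3 immature cells held 441.6 ± 9.83 CPM of the summed beta chains, 96.3 ± 31.6 of Il3ra, 4.59 ± 0.908 of Csf2ra and 0.741 ± 0.340 of Il5ra. TSLP mature cells held 1794 ± 329.9 CPM per kilobase of the beta chains, 29.2 ± 6.02 of Il3ra, 11.1 ± 3.83 of Csf2ra and 1.16 ± 1.01 of Il5ra. The order of the chains was thus beta chains, Il3ra, Csf2ra and Il5ra in these groups. With shorter coding transcripts of the annotation, Il3ra would be at 138.1 and Il5ra at 1.55 CPM per kilobase in IL-3 immature cells, and the order is kept.

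Counts of the summed beta chains per count of Il3ra were 7.79, 14.9 and 8.77 in immature and 39.8, 42.5 and 42.4 in mature libraries grown with IL-3. With TSLP they were 35.3, 38.6 and 69.6 in immature and 86.6, 138.3 and 180.4 in mature libraries. This ratio is taken within a library and so does not depend on scaling between libraries. IL-3 mature and TSLP immature libraries overlapped, IL-3 immature libraries lay below all others and TSLP mature libraries above all others. On the log2 scale, Il3ra relative to the beta chains was higher in immature than in mature cells by 2.05 with IL-3 and by 1.503 with TSLP. The difference of TSLP minus IL-3 was -1.64 in mature and -2.18 in immature cells. All 4 differences separated the groups completely, with the smallest p that an exact two-sided permutation test of 3 against 3 allows (p = 0.1, and 0.229 after Benjamini-Hochberg adjustment over 16 tests).

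**Figure D4:**
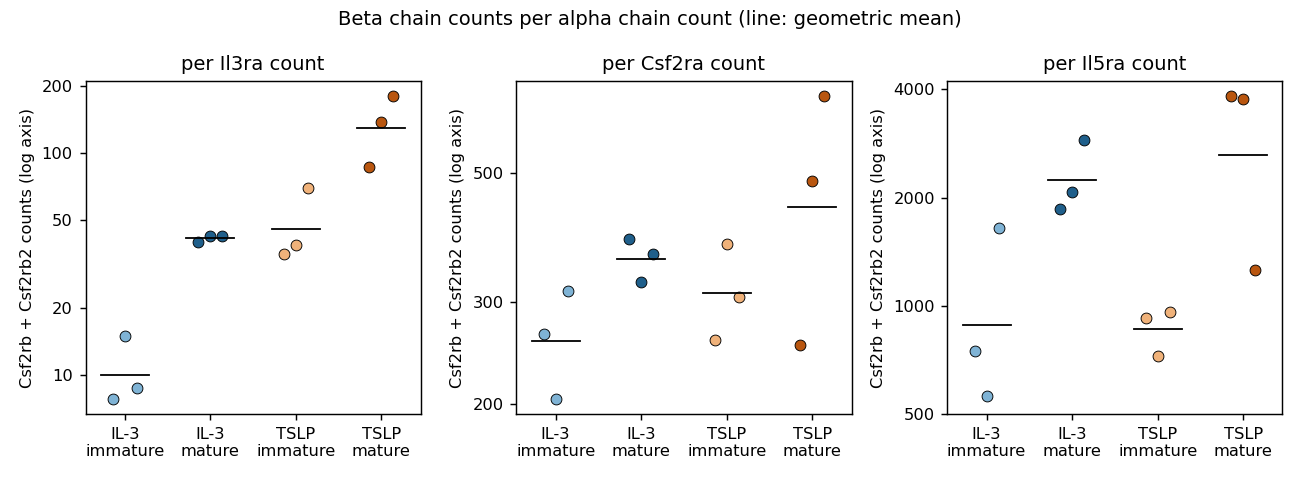
Counts of Csf2rb and Csf2rb2 together per count of Il3ra, Csf2ra or Il5ra (vertical axes, log scale) in each library, by group; lines are geometric means. Per Il3ra count, IL-3 immature libraries lie at 7.79 to 14.9 and TSLP mature libraries at 86.6 to 180.4, with the remaining groups between them.

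For the GM-CSF receptor, beta chain counts per count of Csf2ra were 260.4 ± 54.8, 357.1 ± 31.0, 313.96 ± 60.3 and 471.9 ± 212.9 in the 4 groups (mean ± SD, n = 3). Of its 4 comparisons the groups separated only between the IL-3 stages (exact two-sided permutation test, p = 0.1), by a log2 difference of 0.47. For Il5ra, the ratio rested on few counts, and it separated the stages in both cultures (p = 0.1 each) but not the cytokines (p = 0.8 and 0.9, exact two-sided permutation tests).

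The genes whose levels followed those of the receptor chains most closely were sought by Pearson r of log2 CPM over the 12 libraries among 7549 to 7550 genes whose mean reached 10 CPM. Since the libraries form 4 groups, r mostly describes the order of the groups. Il3ra was most like E2f4 (r = 0.97), Rex1bd (0.95) and 1700122E12Rik (0.95). Csf2rb was most like Add1 (0.99), Zbtb4 (0.99) and Ccnd2 (0.98), and Csf2rb2 most like Sgk1 (0.99), Atp6v1b2 (0.99) and Itgb7 (0.99). Csf2ra was most like Trappc5 (0.95), Ly6c1 (0.95) and Tbc1d20 (0.95), and Il5ra, at its low counts, reached at most 0.79, with Vps41. Between the chains themselves r was 0.98 for Csf2rb with Csf2rb2, which share sequence, 0.84 for Csf2rb with Csf2ra and -0.44 for Csf2rb with Il3ra.

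The ligands of the family were next examined in the cells themselves. Il3 and Il5, which encode IL-3 and IL-5, had 0 counts in all 12 libraries, which allows up to 0.350, 0.386, 0.340 and 0.286 CPM in the 4 groups (3 counts over a group, counting error only). Csf2, which encodes GM-CSF, had 4 counts over IL-3 mature and 3 over TSLP mature libraries and 0 in both immature groups. None of the 3 ligands passed the filter for testing.

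Of the other genes of the pathway, 50 of 60 were tested, in lists of kinases and STATs, adaptors, inhibitors, targets and other class I receptors. The lists were chosen with earlier results of these data known. Their counts, here and for each list below, therefore describe the lists and are no independent test. Between the IL-3 stages 4 were higher in immature and 31 in mature cells (22.1% and 24.1% of all tested genes), with a median log2 difference of immature minus mature cells of -0.74 against -0.06 over all genes. Between the TSLP stages 0 were higher in immature and 23 in mature cells by edgeR (12.2% and 12.9% of all tested genes), with a median of -0.52 against -0.03. Between the cytokines, 11 were higher and 6 lower in TSLP mature than in IL-3 mature cells (12.4% and 11.9% of all tested genes, median 0.29 against 0.09). Of the 50, 13 were higher and 0 lower in TSLP immature than in IL-3 immature cells (7.38% and 5.9% of all tested genes, median 0.44 against 0.04), and without TSLP mature 1 these were 20 and 1 (9.62% and 10.7% of all tested genes). In the direction without calls, 2 pathway genes between the TSLP stages and 1 between the immature groups had an unadjusted p under 0.05 in the edgeR fit, and DESeq2 called 1 and 0.

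Among the other class I receptors, 10 of 17 were tested. Crlf2, which encodes the TSLP-binding chain, was at 73.0 ± 9.26, 79.996 ± 11.5, 90.2 ± 9.63 and 97.5 ± 23.8 CPM in the 4 groups (mean ± SD, n = 3) and was called in no comparison (edgeR adjusted p from 0.325 to 0.986). Its partner Il7r was at 8.15 ± 3.14, 251.3 ± 16.6, 34.0 ± 3.66 and 84.5 ± 8.94 CPM and differed in every comparison: with TSLP it was higher in immature (log2 difference 2.08 ± 0.24 SE, edgeR adjusted p = 5.25e-05) and lower in mature cells (-1.57 ± 0.20, edgeR adjusted p = 0.000138). So the TSLP receptor chain Il7r and the IL-3 receptor chain Il3ra were both lower with TSLP in mature cells, whereas in immature cells they differed in opposite directions. The summed B lineage markers were higher with TSLP at both stages, and their part in the level of Il7r was not tested. Il4ra, a chain of the IL-4 receptor, was higher with TSLP in immature cells (2.40 ± 0.32, edgeR adjusted p = 0.000154). Il27ra, a chain of the IL-27 receptor, was higher in TSLP mature cells (3.99-fold, 95% interval 2.63 to 6.05, edgeR adjusted p = 0.000322), and Il2rg, the common gamma chain, was lower there (-0.62 ± 0.16, edgeR adjusted p = 0.0122, lost in 1 of 20 alternatives). In this list 6 were called higher in IL-3 mature than in IL-3 immature cells (24.1% of all tested genes), 7 in TSLP mature than in TSLP immature cells (12.9% of all tested genes), and 0 the other way by edgeR and DESeq2 in both cultures (0 with IL-3 and 1 with TSLP at an unadjusted p under 0.05).

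Of the 9 kinases and STATs, 5 were higher in IL-3 mature and 4 in TSLP mature cells than in their immature counterparts, where 24.1% and 12.9% of all tested genes were. Jak2, the kinase bound to the beta chain, was at 221.5 ± 41.8, 496.6 ± 7.05, 316.2 ± 51.9 and 460.4 ± 132.8 CPM in the order above. It rose from immature to mature cells with IL-3 (immature minus mature -1.16 ± 0.22, edgeR adjusted p = 0.000488), and with TSLP the difference of -0.54 ± 0.22 did not pass (edgeR adjusted p = 0.0830). These differences of Jak2 were not shown to differ from each other (interaction 0.62 ± 0.31, edgeR adjusted p = 0.304). Stat5b was higher in mature cells with IL-3 (-0.77 ± 0.18, edgeR adjusted p = 0.00230) and TSLP (-0.69 ± 0.18, edgeR adjusted p = 0.00966, lost in 4 of 20 alternatives). Stat5a was higher in TSLP mature than in IL-3 mature cells (0.78 ± 0.17, edgeR adjusted p = 0.00545), and Fyn, a SRC family kinase, was lower there (-0.46 ± 0.16, edgeR adjusted p = 0.0436, a call lost in 5 of 20 alternatives). Between the immature groups 0 genes of this list were called by edgeR and 0 by DESeq2, and 4 had an unadjusted p under 0.05, all higher with TSLP. Jak1, a kinase of the JAK family, was higher in mature cells with IL-3 (-0.88 ± 0.20, edgeR adjusted p = 0.00181) and TSLP (-0.66 ± 0.20, edgeR adjusted p = 0.0216, lost in 7 of 20 alternatives).

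Of the 13 adaptors and enzymes of the PI3K and RAS-ERK branches, 8 were higher in IL-3 mature than in IL-3 immature cells (24.1% of all tested genes). Pik3cd, the delta catalytic subunit of PI3K, was higher in mature cells in both cultures (-1.57 ± 0.17 with IL-3, edgeR adjusted p = 1.26e-06, and -0.97 ± 0.16 with TSLP, edgeR adjusted p = 0.000383) and higher with TSLP in immature cells (1.13 ± 0.16, edgeR adjusted p = 0.000402). It was the 1 gene of this list called between the immature groups, where 7.38% of all tested genes were called higher with TSLP. Without TSLP mature 1, 4 of the list were called higher and 0 lower with TSLP (9.62% and 10.7% of all tested genes). Gab2, a scaffold that links the receptor to PI3K, was higher in mature cells with IL-3 (-1.33 ± 0.19, edgeR adjusted p = 3.89e-05). It was also higher in mature cells with TSLP (-0.74 ± 0.19, edgeR adjusted p = 0.00987, lost in 3 of 20 alternatives). Akt1, a kinase downstream of PI3K, was higher in TSLP mature than in IL-3 mature cells (0.77 ± 0.21, edgeR adjusted p = 0.0150, lost in 2 of 20 alternatives).

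Of the 9 transcriptional targets, 6 were higher in IL-3 mature and 2 in IL-3 immature cells (24.1% and 22.1% of all tested genes), and 6 were higher in TSLP immature than in IL-3 immature cells (7.38% of all tested genes). Pim1, a survival kinase gene induced by STAT5, was at 187.2 ± 21.0, 755.6 ± 95.4, 365.3 ± 93.0 and 457.95 ± 49.7 CPM in the 4 groups. With TSLP it was higher in immature (0.96 ± 0.21, edgeR adjusted p = 0.00664, lost in 1 of 20 alternatives) and lower in mature cells (-0.72 ± 0.20, edgeR adjusted p = 0.0179, lost in 2 of 20 alternatives). Pim2, a related kinase gene, was higher with TSLP at both stages (2.67 ± 0.20 in immature, edgeR adjusted p = 3.95e-07, and 1.46 ± 0.17 in mature cells, edgeR adjusted p = 7.17e-05). Osm, which encodes oncostatin M, was higher with TSLP in immature cells (1.77 ± 0.20, edgeR adjusted p = 3.71e-05) and was at 1281 ± 67.9 and 1292 ± 94.5 CPM in the IL-3 and TSLP mature groups. Myc was higher with TSLP at both stages (1.06 ± 0.27 in immature, edgeR adjusted p = 0.0168, lost in 4 of 20 alternatives, and 1.79 ± 0.30 in mature cells, edgeR adjusted p = 0.00103). The cyclin gene Ccnd2 followed Csf2rb most closely among the named pathway genes, at 27.7 ± 5.59, 305.7 ± 36.9, 85.0 ± 9.07 and 377.2 ± 25.9 CPM. The survival gene Bcl2 was higher in IL-3 immature than in IL-3 mature cells (0.74 ± 0.25, edgeR adjusted p = 0.0210, lost in 3 of 20 alternatives).

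Of the 9 inhibitors, 6 were higher in IL-3 mature and 1, the ubiquitin ligase gene Cbl, in IL-3 immature cells (1.34 ± 0.31, edgeR adjusted p = 0.00206), beside 24.1% and 22.1% of all tested genes. Cish, a STAT5 target that inhibits it in turn, was at 10.8 ± 3.90, 91.5 ± 9.60, 118.2 ± 24.7 and 235.2 ± 2.74 CPM in the order above. It was higher with TSLP in immature (3.41 ± 0.24, edgeR adjusted p = 1.77e-07) and in mature cells (1.36 ± 0.21, edgeR adjusted p = 0.000509), the opposite direction to Il3ra at both stages. Socs3, an inhibitor of JAK kinases, was at 5.56 ± 0.198, 262.2 ± 16.9, 32.9 ± 5.81 and 156.7 ± 8.94 CPM. With TSLP it was higher in immature (2.54 ± 0.21, edgeR adjusted p = 1.16e-06) and lower in mature cells (-0.74 ± 0.16, edgeR adjusted p = 0.00428). Socs1, of the same family, was higher in mature cells in both cultures (-3.56 ± 0.26 with IL-3, edgeR adjusted p = 1.93e-08, and -1.61 ± 0.21 with TSLP, edgeR adjusted p = 3.87e-05). Ptpn6, the SHP-1 phosphatase gene, was higher with TSLP in mature cells (0.56 ± 0.18, edgeR adjusted p = 0.0317, lost in 13 of 20 alternatives). Exons of Bcl2, Ccnd2, Cish, Il27ra, Il4ra, Jak1, Pim1, Ptpn6 and Stat5a overlap exons of genes on the other strand, and their reads cannot be told apart from those unless counting used strand.

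**Figure D5:**
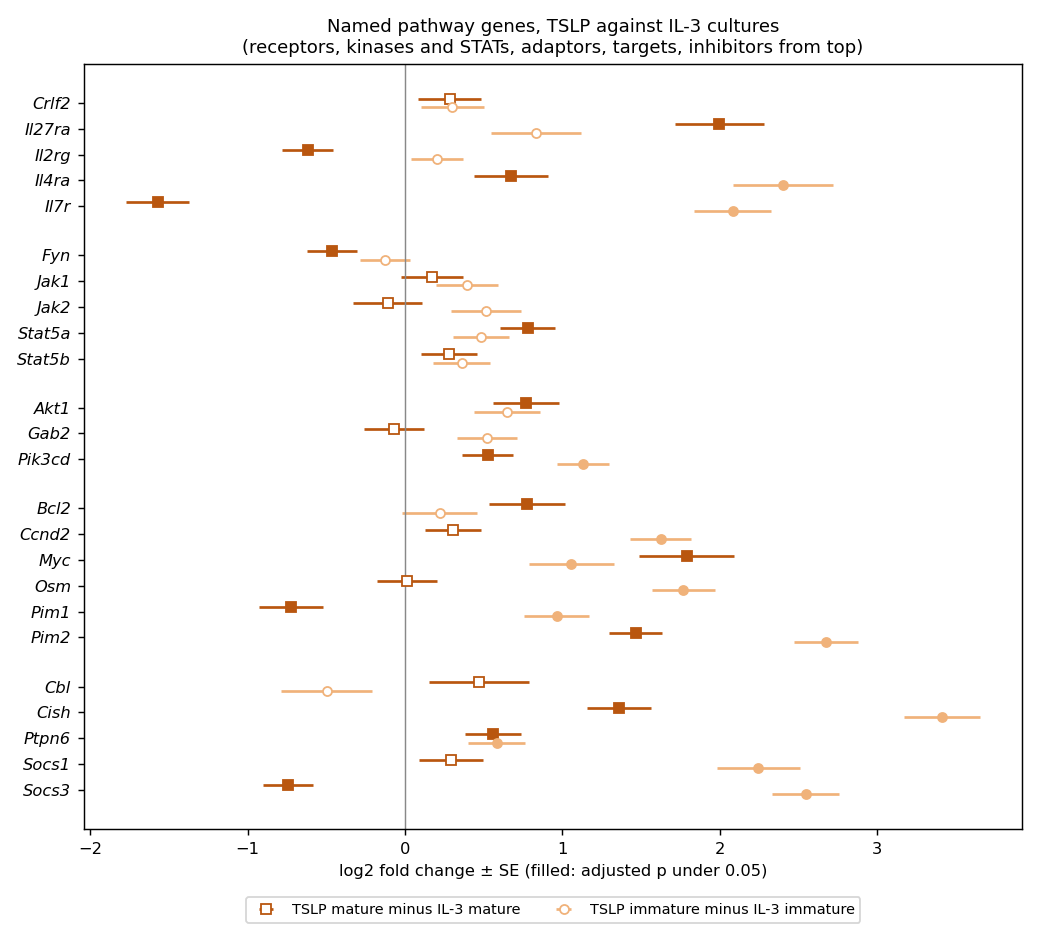
Log2 fold change ± SE (horizontal axis) of the named pathway genes in TSLP minus IL-3 cells, as squares for mature and circles for immature cells, with filled symbols for an adjusted p under 0.05 in the edgeR fit. Cish, Pim2 and Myc lie on the right at both stages, and Il7r, Pim1 and Socs3 lie on the right in immature and on the left in mature cells.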

How the data were processed

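RNA of 12 sorted basophil samples was sequenced on an Ion Proton instrument after oligo(dT) capture and amplification of the cDNA. The authors deposited raw counts per gene in 1 table. Per the study's methods, reads were trimmed with Cutadapt and mapped by Bowtie2 onto reference RNA of the mouse, build GRCm38; the submitters' notes name GRCm39 and mm10. The handling of reads that fit several genes is not given in the sources used here. An unnamed row equal to the total (50% of each column) was left out.

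Genes were kept by filterByExpr (minimum count 10), which left 10861, scaled by TMM and tested with the quasi-likelihood test of edgeR 4.0.16 in R 4.3.3, with 1 mean per group, no block and Benjamini-Hochberg adjustment (threshold 0.05). The fit was tested on simulated data. Counts of Csf2rb and Csf2rb2 were also summed before fitting. Ratios were compared by exact permutation tests in SciPy 1.17.1. Sequences came from GRCm38 with its annotation and from RefSeq.

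The genes and lists were chosen with earlier results of these data known. Values are given for the 5 receptor genes, 3 ligands, Crlf2, Il7r, Jak2, Stat5a, Stat5b, Cish and Pim1, and for up to 2 called genes per list, direction and pairwise comparison with the largest change at a mean of at least 10 CPM, not repeated here where already described; 1 gene that this rule names is counted with its list and is otherwise not reported here. Markers of T and NK cells summed to 0.331 to 9.17 CPM. The 8 proliferation genes summed to 1613 to 1698 CPM in IL-3 immature and 18.9 to 25.1 CPM in IL-3 mature libraries. With TSLP they summed to 1062 to 1126 CPM in immature and 69.8 to 81.7 CPM in mature libraries. Between the mature groups 8 were called higher and 0 lower with TSLP (12.4% and 11.9% of all tested genes). Without TSLP mature 1 these were 6 and 0 (10.4% and 16.5%). Their part in the stage differences of other genes was not tested. Alternatives were DESeq2 1.42.0, other scaling, filters and sample sets, a replicate block and leaving out each library; leaving out ribosomal RNA was added after the data were seen. Since reads that carry no molecular identifier may copy each other, limits cover counting error only.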

Additional observations from a re-analysis of the deposited data

Results flagged for a closer look

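For the 5 receptor genes, a difference between cytokines in the step from immature to mature cells was not shown: the interaction called 0 by edgeR and 0 by DESeq2, and 1, Csf2rb2, had an unadjusted p under 0.05. Of all 50 tested pathway genes, edgeR called 10 with a positive and 0 with a negative interaction, beside 2.15% and 2.04% of all tested genes, and 4 had a negative value at an unadjusted p under 0.05, where DESeq2 called 0. The named pathway genes were chosen for large changes between these groups, and 9 of them are among the 10. Each had a positive value, that is, an immature minus mature log2 difference less negative with TSLP than with IL-3. The interaction was 3.65 for Il7r (adjusted p = 8.35e-06), 3.29 for Socs3 (adjusted p = 4.49e-06), 2.05 for Cish (adjusted p = 0.00166), 1.95 for Socs1 (adjusted p = 0.00329) and 1.75 for Osm (adjusted p = 0.00203). It was 1.73 for Il4ra (adjusted p = 0.0222), 1.69 for Pim1 (adjusted p = 0.00349), 1.32 for Ccnd2 (adjusted p = 0.00877) and 1.21 for Pim2 (adjusted p = 0.0146). All 9 had their lowest group mean in IL-3 immature cells. Choosing genes by large changes and a positive interaction favours this outcome, so it was no test of a link to the beta chains. The call of Il4ra was lost in 2 of 19 alternatives, and the other 8 were called in all of them. Among the 8 proliferation genes the interaction called 7 with a negative and 0 with a positive value (2.04% and 2.15% of all tested genes). Their difference between the stages was thus smaller with TSLP. Its bearing on the other interactions was not tested.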

How the results depend on the processing

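Over all alternatives, Il3ra, Csf2rb2 and Il5ra kept their side of the threshold in every comparison. Csf2ra between the TSLP stages lost its call in most alternatives: its log2 difference was -0.75 with DESeq2, -0.74 with RLE factors, -0.74 with TMM on uncalled genes, -0.68 with a filter of 10 CPM in 3 libraries, -0.75 with 2 groups only and -0.71 without ribosomal RNA, and it ran from -0.89 to -0.36 when 1 library was left out, with the call lost in 10 of 12 such fits. For TSLP immature against IL-3 immature cells, leaving out 1 library gave 0.60 to 0.77 for Csf2rb and 0.63 to 0.78 for Csf2rb+Csf2rb2. Whether replicate numbers mark shared cultures is not given, and they were not treated as pairs, since r of same-numbered deviations was over 0.1 in only 7 of 18 pairs (-0.08 to 0.39); a library correlated best with its own number in 24 of 36 cases, a hint from the data and not from the design. With the number as a replicate block, Csf2rb2 gave -2.02 with IL-3 and -1.33 with TSLP, Il3ra gave -1.45 in mature and -1.43 in immature cells, and no call of a receptor gene changed; the calls over all genes rose in all 5 comparisons, most between the immature groups, from 1443 to 1893. Leaving out 1 library gave 4193 to 5676 and 1774 to 3456 calls over all genes between the IL-3 and TSLP stages, 1658 to 2968 between the mature groups, 588 (without TSLP immature 3) to 2243 (without TSLP mature 1) between the immature groups and 240 to 723 for the interaction, and with 2 groups only 1714 were called between the mature groups, 704 higher and 1010 lower with TSLP. Without a filter 769 were higher and 948 lower in TSLP immature than in IL-3 immature cells, against 802 and 641. Without ribosomal RNA, 1019 genes were higher and 1491 lower in TSLP mature than in IL-3 mature cells, against 1345 and 1289. Ratios moved by less than 1 SD with Csf2rb alone as the denominator or without any 1 library; for Il3ra they ran from 1.86 to 2.33 between the IL-3 and 1.26 to 1.81 between the TSLP stages. With Spearman's rho, at most 1 of the 3 most similar genes of a receptor gene was the same. Of 71 calls of named pathway genes, 21 were lost in at least 1 alternative, and 0 reversed; most often lost were those of Il4ra between the mature groups (18 of 20) and of Ptpn6 between the immature groups and Il27ra between the TSLP stages (16 of 20 each). Il5ra rests on 23 to 42 counts in a group.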
